A study of Mus musculus with 12 samples.

Results

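The MHC class I antigen presentation genes described here were H2-K1, H2-D1, B2m, Tap1, Tap2, Tapbp, Psmb8, Psmb9, Psmb10 and Nlrc5. They were chosen by name, as 10 of the 36222 genes in the deposited expression table, and each name had 1 row there. The table holds RNA sequencing of regulatory T cells (Treg) from mouse spleen in 4 groups of 3 libraries. WT mice carried the Foxp3-YFP-Cre allele alone, and conditional knockout (cKO) mice carried it together with a floxed Ikzf1, which encodes the transcription factor Ikaros. The Cre follows the Foxp3 promoter, so the deletion is expected only where Foxp3 is expressed, and YFP from the same allele was used to sort the cells of individual mice. Cells of each genotype were taken either directly (ex vivo) or after 4 h on plate-bound antibodies to CD3 and CD28 at 1 µg/ml each (stimulated). The mice used for the ex vivo libraries were young adults matched for age.

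MHC class I molecules display peptides from inside the cell to CD8 T cells. The heavy chains encoded by H2-K1 and H2-D1 pair with β2-microglobulin, encoded by B2m. Peptides are cut by the proteasome, in which Psmb8, Psmb9 and Psmb10 encode the catalytic subunits of the interferon-inducible immunoproteasome. They enter the endoplasmic reticulum through the transporter formed by the Tap1 and Tap2 products, where tapasin, the product of Tapbp, holds that transporter to empty class I molecules. Nlrc5 encodes the transactivator of this gene set, which acts through factors bound to a shared promoter module. Lymphocytes carry high levels of class I, and interferon-γ raises expression of most of these genes.

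In total, 4 of the 9 members that could be tested were higher in cKO than in WT after stimulation, namely Nlrc5, Tap1, Psmb10 and Tap2, while none passed the test ex vivo. Of all tested genes, 6.92% were called after stimulation, 3.30% as higher. H2-K1, H2-D1 and B2m, which make up the presented molecule itself, did not pass the test in any of the 5 comparisons. Under quantile normalization, however, H2-K1 and H2-D1 were called higher after stimulation in both genotypes. In some other settings H2-D1 was called lower in each genotype, as was H2-K1 in cKO without stimulated cKO library 2. Stimulation lowered Nlrc5, Tap2 and Tapbp in both genotypes, lowered Psmb10 in WT and raised Tap1 in cKO, although in cKO the direction turned for Nlrc5 and Tap2 under quantile normalization and for Tap1 under a filter at 1 TPM. Stimulation moved 32.0% of all tested genes in WT and 43.8% in cKO past the threshold. The 4 genotype calls depended on how libraries were scaled and on single libraries, as given beside them.

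The libraries held between 8208659 and 20247649 assigned reads, and each member other than Psmb9 was tested. One predicted gene, Gm10800, took 17.7% to 39.8% of the TPM (a transcript level per length that sums to the same total in each library) in the ex vivo libraries and 32.6% to 55.9% in the stimulated ones. All other genes in a library are lowered by such a share. Values below are TPM divided by a factor per library that aligns the bulk of the genes, called scaled TPM. These factors did not follow the Gm10800 share alone. They were 1.053 in cKO ex vivo 1 (share 23.9%) and 1.055 in cKO stimulated 1 (42.9%). Ikzf1, the targeted gene, stood at 110 ± 5.55 scaled TPM in WT and 37.8 ± 4.57 in cKO ex vivo, and at 68.9 ± 2.24 and 27.8 ± 3.91 after stimulation (SD, n = 3). The Treg markers fixed as a list summed to 791 to 2310 TPM in each library, against 8.84 to 16.3 TPM for CD8 T cell markers and 8.65 to 22 TPM for B cell markers. Among the WT mice, 1 ex vivo library expressed the female-specific Xist at 179 TPM and no other library did so above 1.36 TPM. The same replicate number therefore did not mark the same animal in WT replicate 3. The Gm10800 share was largest in replicate 3 of the stimulated cKO group (55.9%) and in replicate 2 of the other 3 groups (39.8% for resting WT, 24.4% for resting cKO and 44.4% for stimulated WT).

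Of the 10 members, 7 lie on chromosome 17 in the MHC. Positions are those of the GENCODE vM1 annotation of NCBIM37 (mm9), the build of the deposited files. From the centromere side they are Tapbp (34052844 to 34066235, plus strand), H2-K1 (34132962 to 34137278, minus), Psmb9 (34318933 to 34324709, minus), Tap1 (34324498 to 34334170, plus), Psmb8 (34334666 to 34338399, plus), Tap2 (34340472 to 34353266, plus) and H2-D1 (35399675 to 35404444, plus). Psmb9 and Tap1 are transcribed away from each other and their first exons overlap, and only 495 bases separate Tap1 from Psmb8. B2m is on chromosome 2 (121973422 to 121978819, plus), while Nlrc5 (96996663 to 97051172, plus) and Psmb10 (108459628 to 108462292, minus) are on chromosome 8. The antisense gene Gm20496 overlaps 6.83% of the exonic bases of Psmb8, and together with Gm15821 it overlaps 18.5% of those of Tap2. Reads were counted by strand, so these antisense genes are counted apart.

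RefSeq promoters were at hand for 8 members, and those of Tap2 and Nlrc5 were not. They are shown because the heavy chain and B2m promoters carry the module through which class I genes are known to be controlled, and because Psmb10 was called between genotypes after stimulation, in 9 of 23 alternatives as well, and these 3 genes were not. Each line gives the bases before the RefSeq start site, 5′ to 3′ on the strand of the gene, from the RefSeq table of GRCm38.p6 and placed on mm9 by exact match. For B2m the last base before the start was dropped because it lies in the annotated gene. Capitals mark matches, on either strand, to GGGATTCCC (a κB sequence), TGACG (a CRE core), CCAAT, GAAANNGAA (a form of the interferon response element core) and TGGGAA (a form of the core bound by Ikaros).
H2-K1, chr17:34137293-34137542, minus strand: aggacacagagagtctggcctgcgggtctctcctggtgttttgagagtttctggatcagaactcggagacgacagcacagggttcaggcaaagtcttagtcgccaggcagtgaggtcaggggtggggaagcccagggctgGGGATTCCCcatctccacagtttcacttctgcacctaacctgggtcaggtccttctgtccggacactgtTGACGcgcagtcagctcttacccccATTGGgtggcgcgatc
B2m, chr2:121973173-121973421, plus strand: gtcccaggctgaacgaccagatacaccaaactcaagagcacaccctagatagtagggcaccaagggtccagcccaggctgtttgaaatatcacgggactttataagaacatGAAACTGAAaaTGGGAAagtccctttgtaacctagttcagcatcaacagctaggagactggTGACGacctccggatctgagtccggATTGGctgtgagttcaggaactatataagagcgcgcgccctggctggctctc
Psmb10, chr8:108462293-108462542, minus strand: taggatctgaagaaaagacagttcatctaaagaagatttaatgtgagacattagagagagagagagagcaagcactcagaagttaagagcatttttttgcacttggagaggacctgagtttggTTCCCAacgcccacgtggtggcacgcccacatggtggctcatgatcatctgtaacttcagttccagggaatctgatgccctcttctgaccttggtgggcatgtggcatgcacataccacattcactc

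The H2-K1 and H2-D1 windows, set against each other at the κB sequence, were identical at 166 of 190 bases (87.4%). Annotated exons cover the windows of H2-D1 and Tap1 in mm9, so only 30 bases around a match are shown for each, with that match alone in capitals.
H2-D1, κB sequence, chr17:35399859-35399888, plus strand: cccagggctgGGGATTCCCcatctcctcag
H2-D1, CRE core, chr17:35399926-35399955, plus strand: ccgggacactgaTGACGcgctggcaggtct
Tap1, CRE core, chr17:34324403-34324432, plus strand: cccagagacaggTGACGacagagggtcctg
Tap1, Ikaros core, chr17:34324447-34324476, plus strand: tggggcctgggaTGGGAAaattcacgcaag

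Over the 250 bases before the start, the letters GGGATTCCC were found in H2-K1 and H2-D1 of the 8 members and in 0.301% of 32851 promoters in the RefSeq table. Only this form of the κB sequence was searched, so other forms would be left unmarked in any window. The CRE core was in H2-K1, H2-D1, B2m, Tap1 and Psmb9 and in 17.8% of promoters. CCAAT was in the same 5 genes and in Tapbp, and in 33.8% of promoters. The interferon response core was in B2m alone, against 7.13% of promoters, and 2 bases lay between it and the Ikaros core there. The letters TGGGAA were in B2m, Psmb10, Tapbp, Psmb8, Psmb9 and Tap1, not in H2-K1 or H2-D1, and in 21.6% of promoters. The authors describe the shorter GGGAA as the Ikaros core, a sequence shared with NFκB among others. This shorter form was not searched, and its reverse complement lies within the κB letters of H2-K1 and H2-D1. The windows of Tap1 and Psmb9 cover largely the same DNA on opposite strands, so their matches are the same sites. These are matches of letters and were not measured as binding.

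**Figure D1:**
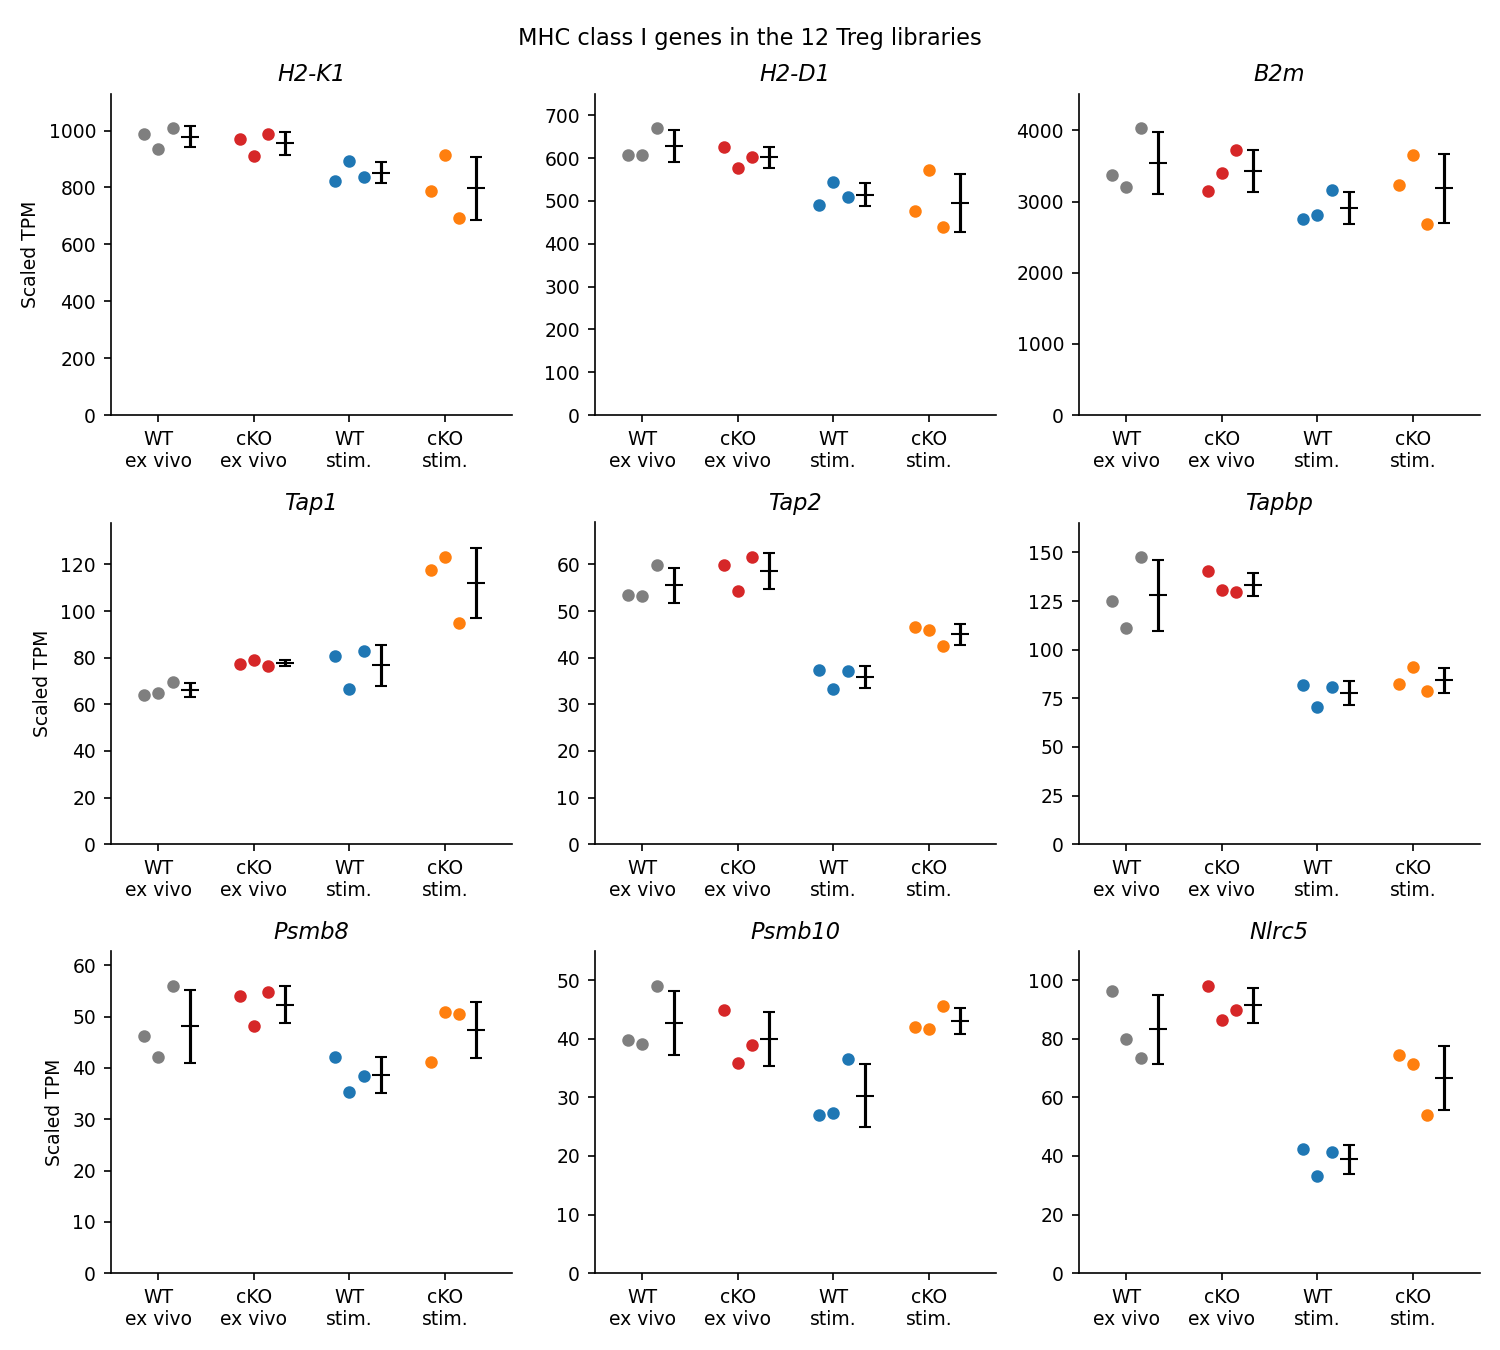
Scaled TPM (vertical axis, starting at 0) of the 9 tested members in the 4 groups of libraries; each point is 1 library, and the black bar is the mean with its SD (n = 3). For Nlrc5 the stimulated cKO libraries (54.0 to 74.3) lay above the stimulated WT libraries (33.04 to 42.2), while for H2-K1 and H2-D1 these groups overlapped.

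The members covered a wide range of levels in resting WT Treg. TPM is a level per length of transcript, so genes can be set side by side. B2m was highest at 3539 ± 438 scaled TPM, followed by H2-K1 at 978 ± 37.6 and H2-D1 at 628 ± 36.8 (SD, n = 3). Next came Tapbp at 128 ± 18.4, Nlrc5 at 83.2 ± 11.8 and Tap1 at 66.2 ± 3.01. The lowest were Tap2 at 55.5 ± 3.77, Psmb8 at 48.1 ± 7.09 and Psmb10 at 42.7 ± 5.50. The libraries of neighbours in this order did not overlap down to Tap2, whereas Tap2 overlapped with Psmb8 and Psmb8 with Psmb10.

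Psmb9, the immunoproteasome β1i subunit, had 0 reads in 10 libraries and 1 read in 2. A count of 0 allows up to 3 reads, which correspond to 0.061 to 0.12 TPM depending on the library. The annotation used here, from an earlier Ensembl release than the one the authors counted on, holds a second Psmb9 model on the same strand, and 99.7% of the exonic bases of the model in the table lie within other exons on that strand. The authors' counting mode assigns a read that overlaps 2 genes to neither. The second model was not analysed here, and whether the reads of Psmb9 were lost in this way was not tested. The value of Psmb9 therefore says nothing of its expression, and the gene was not tested. Other members share little. For H2-K1, 6.8% of the 51-base stretches of its transcripts also occur in protein-coding transcripts of other genes, and for H2-D1 12.2%. A read there may not be assigned to a single gene unless its mate lies elsewhere, and such losses were not tested. Shares were at most 1.06% for B2m, Tap1, Tap2, Tapbp, Psmb8 and Psmb10, and Nlrc5 has no transcript in that set.

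To ask whether Ikaros loss alters the class I genes in resting cells, cKO and WT were compared ex vivo. Values were fitted with limma over all 13318 genes with a group mean of at least 5 TPM, on log2(scaled TPM + 1), and p-values were adjusted by Benjamini-Hochberg within a comparison. None of the 9 tested members was called, and none had an unadjusted p under 0.05, while 5.29% of all genes were called. Tap1 came closest, at 64.2, 64.7 and 69.6 scaled TPM in WT and 77.2, 79.0 and 76.6 in cKO. All 3 cKO libraries lay above all WT libraries, which also held, in either direction, for 21.5% of tested genes. The Tap1 difference was 0.23 (log2; SE 0.11, 95% interval -0.02 to 0.48, adjusted p = 0.329).

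The other 8 members differed by -0.09 to 0.14 (log2) ex vivo, and their groups overlapped in scaled TPM. In unscaled TPM, where the median gene differed by 0.21 (log2), the groups of Tap2, Tapbp and Psmb8 also stood apart, higher in cKO. The heavy chains were nearly level. H2-K1 stood at 989, 936 and 1009 scaled TPM in WT and 969, 910 and 987 in cKO, a difference of -0.03 (95% interval -0.30 to 0.23). For H2-D1 the interval ran from -0.31 to 0.19, and for B2m from -0.42 to 0.34. Nlrc5 stood at 96.2, 80.0 and 73.3 in WT and 98.0, 86.5 and 89.7 in cKO, with an interval of -0.18 to 0.46. The intervals of all 9 members included 0 and leave room for small differences in either direction.

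After stimulation the picture differed by gene. The transactivator gene Nlrc5 stood at 42.2, 33.04 and 41.2 scaled TPM in WT and at 74.3, 71.5 and 54.0 in cKO, a difference of 0.76 (log2; SE 0.15, adjusted p = 0.011). The lowest cKO library was above the highest WT library. Tap1, a chain of the peptide transporter, stood at 80.9, 66.4 and 82.7 in WT and at 118, 123 and 94.8 in cKO (difference 0.54, SE 0.11, adjusted p = 0.0174). Its partner Tap2 stood at 37.3, 33.2 and 37.2 in WT and at 46.6, 45.9 and 42.4 in cKO (0.32, SE 0.08, adjusted p = 0.0475). Both transporter genes were thus higher in each cKO library than in any WT library on this scale.

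Psmb10, the immunoproteasome β2i subunit, stood at 27.1, 27.4 and 36.5 scaled TPM in stimulated WT and at 42.0, 41.6 and 45.6 in stimulated cKO (0.50, SE 0.13, adjusted p = 0.0465). Here again the groups did not overlap, as for 30.8% of tested genes. In the unscaled TPM the groups overlapped for all 4 of these genes (Tap1 was at 69.41 in the lowest cKO library and 100.1 in the highest WT library), and of the tested members only H2-K1 then stood apart, lower in cKO. All 4 called members were higher in cKO, against 6.92% of all genes called and 3.30% called higher. Over the 9 tested members the median difference was 0.29, beside -0.03 over all tested genes.

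The remaining 5 members were not called after stimulation. Psmb8, which encodes the β5i subunit, stood at 42.2, 35.2 and 38.4 in WT and at 41.2, 50.8 and 50.4 in cKO, so that 1 cKO library fell among the WT libraries (0.29, SE 0.12, adjusted p = 0.184). H2-K1 stood at 824, 894 and 838 in WT and 786, 914 and 693 in cKO, a difference of -0.10 (95% interval -0.36 to 0.16). H2-D1 stood at 491, 545 and 509 in WT and 476, 572 and 439 in cKO, a difference of -0.06 (-0.31 to 0.19). Both heavy chain genes had 1 cKO library above and 2 below every WT library. B2m differed by 0.12 (-0.25 to 0.50) and Tapbp by 0.11 (-0.13 to 0.36).

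**Figure D2:**
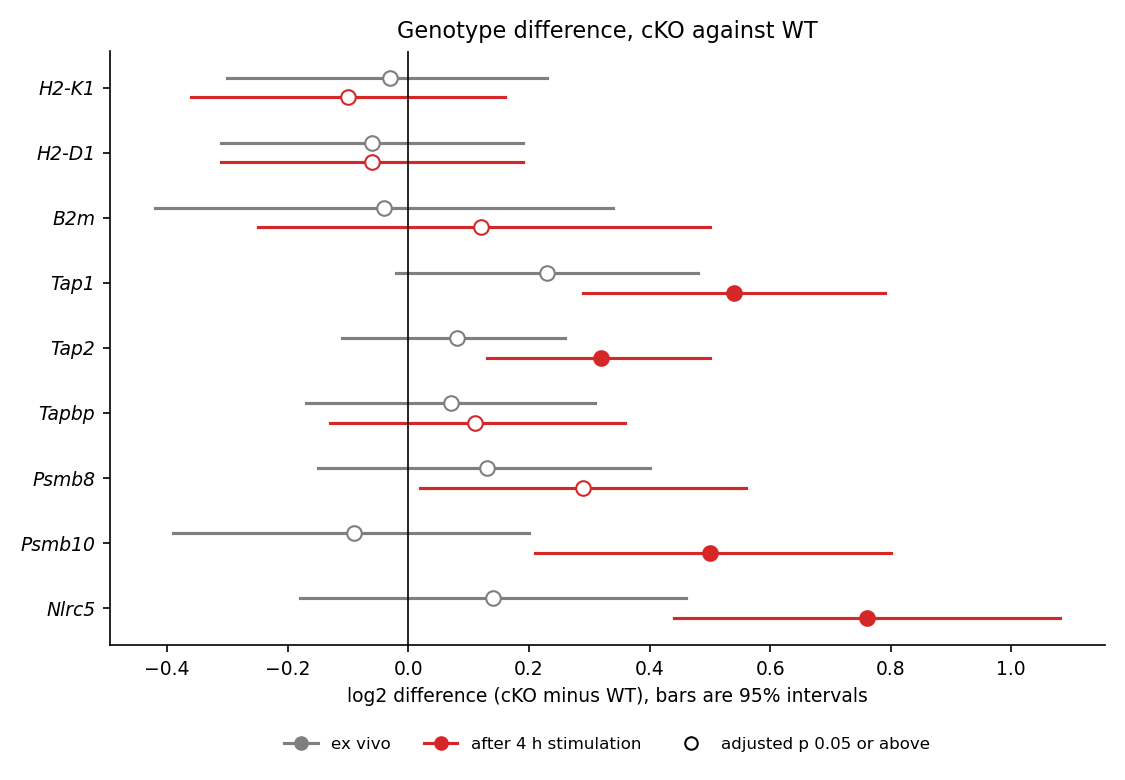
Log2 difference between cKO and WT (horizontal axis) for the 9 tested members ex vivo (grey) and after 4 h of stimulation (red), with 95% intervals from the limma fit; filled points had an adjusted p under 0.05. The 4 filled points are Nlrc5 (0.76), Tap1 (0.54), Psmb10 (0.50) and Tap2 (0.32), all after stimulation.

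These 4 calls rested on the scaling and on single libraries. None was made with a filter at 1 TPM or with unscaled TPM, where Nlrc5 had an adjusted p of 0.466 and 0.25. Both settings also put the median of the genes at 5 TPM or more at -0.30 (log2), and relative to that median Nlrc5 remained 0.76 and 0.77 higher in cKO and Tap1 0.54 and 0.55 higher. Over all 24 settings, the difference relative to the median gene was 0.68 to 1.06 for Nlrc5, 0.47 to 0.90 for Tap1, 0.47 to 0.77 for Psmb10 and 0.29 to 0.56 for Tap2. Fitting the stimulated libraries alone called none either (adjusted p = 0.0507 for Nlrc5 and 0.0787 to 0.0816 for the others). Quantile normalization called 6 members higher, these 4 together with Tapbp (0.34, adjusted p = 0.0279) and Psmb8 (0.48, adjusted p = 0.0294).

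Leaving out stimulated WT library 2 or stimulated cKO library 1 ended every call. Nlrc5 then had an adjusted p of 0.0578 or 0.0509, Tap1 of 0.0821 or 0.0702, Psmb10 of 0.176 or 0.104 and Tap2 of 0.195 or 0.14, in the limma fit. Nlrc5 was still called when each of the other 10 libraries was left out in turn, and so was Tap1 except for stimulated cKO library 2 (adjusted p = 0.0574). Psmb10 and Tap2 were called in only 3 and 2 of the 12 fits that left out 1 library, Psmb10 being lost without 9 libraries and Tap2 without 10. Leaving out WT ex vivo 2 and cKO stimulated 3 together, each with the largest Gm10800 share of its group, gave 0.93 for Nlrc5 (adjusted p = 0.00703) and 0.68 for Tap1 (0.00745). Tap2 and Psmb10 were then at 0.0503 and 0.114.

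Of the 6 Treg markers, 4 were not called between genotypes after stimulation (Ctla4 0.30, Cd4 0.21, Ikzf2 -0.13 and Cd3e -0.25). Foxp3 (0.96, SE 0.18, adjusted p = 0.00848) and Il2ra (0.80, SE 0.15, adjusted p = 0.00973) were higher in stimulated cKO, called in 19 and 20 of 23 alternatives. Ex vivo these 2 genes differed by -0.12 and 0.00 without a call. Their part in the class I values was not tested. Markers of other cells were low beside these genes but did not stand level between genotypes. B cell markers summed to 8.65 to 13.6 TPM in stimulated WT and 12.5 to 16.9 in stimulated cKO, and to 9.49 to 12.7 and 16.1 to 22 ex vivo. Their list has 4 genes, and none of them was at 0 in all libraries. Only Cd79b was high enough to be tested, and it was higher in stimulated cKO (0.96, SE 0.23, adjusted p = 0.0283; called in 14 of 23 alternatives). Myeloid and dendritic cell markers summed to 13.6 to 15.9 TPM in stimulated WT and 11.7 to 20.2 in stimulated cKO, NK cell markers to 5.88 to 7.21 and 6.67 to 8.64, and erythroid markers to 4.89 to 5.61 and 3.98 to 6.94. For comparison, the median of 1096 olfactory receptor genes, which T cells do not need, was 0.995 TPM in stimulated WT and 1.06 in stimulated cKO. The part of such cells in the class I values was not tested. In bulk RNA, fewer cells of a type and less RNA per cell cannot be told apart.

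Ratios within a library do not depend on any scaling between libraries. Psmb10 takes the place of Psmb7 when the immunoproteasome forms, so the ratio of their TPM was compared. In stimulated cells it was 0.563, 0.572 and 0.727 in WT and 0.858, 0.760 and 1.06 in cKO, so every cKO library was higher (1.43-fold; exact permutation p = 0.1, the smallest that 3 libraries against 3 allow, two-sided). Ex vivo the ratio was 0.713 ± 0.053 in WT and 0.667 ± 0.0281 in cKO (SD, n = 3), with overlapping groups. Psmb8 takes the place of Psmb5, and this ratio was 2.53 ± 0.321 in stimulated WT and 3.03 ± 0.381 in stimulated cKO, with overlap.

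For the heavy chains, the ratio of H2-K1 to B2m was 0.299, 0.317 and 0.265 in stimulated WT and 0.244, 0.25 and 0.258 in stimulated cKO. All 3 cKO libraries were lower (0.85-fold; exact permutation p = 0.1, two-sided). For H2-D1 the ratio was 0.178 ± 0.0163 in WT and 0.156 ± 0.00803 in cKO, and the groups overlapped. In total 4 ratios were compared in 4 comparisons each, and with 0.1 as the smallest possible p no comparison of ratios could pass 0.05.

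**Figure D3:**
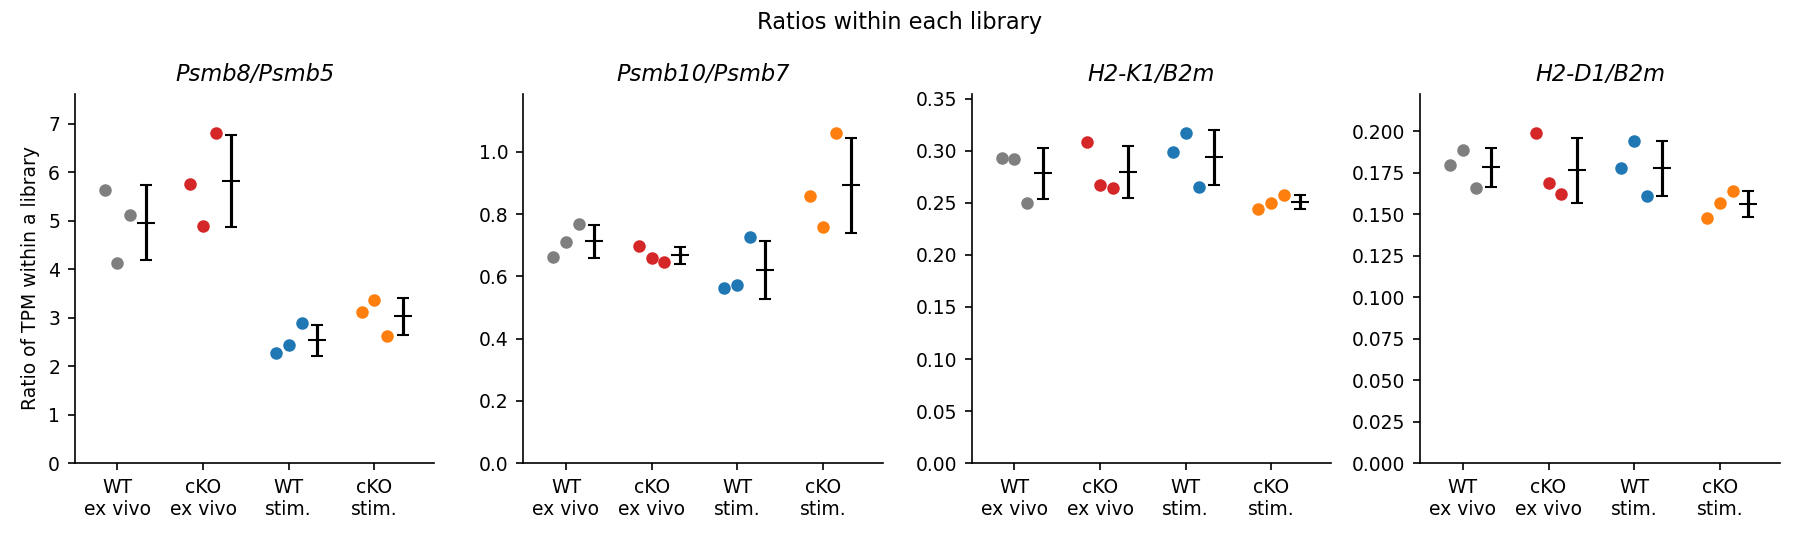
Ratio of TPM within a library (vertical axes, starting at 0) for Psmb8 to Psmb5, Psmb10 to Psmb7, H2-K1 to B2m and H2-D1 to B2m in the 4 groups; points are libraries, and black bars are the mean with its SD (n = 3). The Psmb8 to Psmb5 ratio fell from 4.96 to 2.53 in WT and from 5.82 to 3.03 in cKO on average, and the Psmb10 to Psmb7 ratio was highest in stimulated cKO.

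To see how the members changed with stimulation, stimulated and ex vivo libraries of the same genotype were compared. No group was kept for 4 h without the antibodies, so stimulation and time in culture cannot be told apart. In WT Treg, Nlrc5 went from 96.2, 80.0 and 73.3 to 42.2, 33.04 and 41.2 scaled TPM, a fall of more than all its libraries varied (-1.08, SE 0.15, adjusted p = 0.000257). Tapbp fell from 125, 111 and 148 to 82.1, 70.5 and 80.8 (-0.70, adjusted p = 0.000726), and Tap2 from 53.5, 53.3 and 59.9 to 37.3, 33.2 and 37.2 (-0.62, adjusted p = 0.000285). Psmb10 fell from 39.9, 39.1 and 49.0 to 27.1, 27.4 and 36.5 (-0.49, adjusted p = 0.0169). The call of Psmb10 was lost without WT ex vivo library 3 (adjusted p = 0.069), stimulated WT library 1 (0.0685) or stimulated WT library 2 (0.0596). With unscaled TPM only Nlrc5 was called in this comparison, and under quantile normalization Psmb10 was not called (-0.23, adjusted p = 0.221).

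All 4 called members were lower after stimulation in WT, beside 32.0% of all genes called and 19.3% called lower. The other 5 were not called. H2-D1 differed by -0.29 (adjusted p = 0.0794), Psmb8 by -0.31 (0.0806), B2m by -0.28 (0.241) and H2-K1 by -0.20 (0.226), in the same limma fit. Tap1 differed by 0.20 (0.192), the only member with a positive value. H2-D1 was called lower without stimulated cKO library 2 (adjusted p = 0.0421), and Psmb8 without WT ex vivo library 2 (0.0424) or with voom on recovered reads (0.0405). Without WT ex vivo 2 and cKO stimulated 3 together both were called lower (0.0492 and 0.0377). Quantile normalization called 6 members in WT, of which H2-K1 (0.54, adjusted p = 0.00507), H2-D1 (0.59, 0.00024) and Tap1 (0.57, 0.00209) were higher and Nlrc5, Tap2 and Tapbp lower.

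In cKO Treg, Tapbp fell from 140, 131 and 130 to 82.5, 91.1 and 79.0 scaled TPM (-0.66, SE 0.11, adjusted p = 0.000887). Tap2 fell from 59.9, 54.3 and 61.6 to 46.6, 45.9 and 42.4 (-0.37, SE 0.08, adjusted p = 0.00516). Nlrc5 fell from 98.0, 86.5 and 89.7 to 74.3, 71.5 and 54.0 (-0.46, SE 0.15, adjusted p = 0.0253). The call of Nlrc5 was lost without cKO ex vivo library 1 (0.0883), cKO ex vivo library 3 (0.0584) or stimulated cKO library 3 (0.14). Groups did not overlap for any of these 3 genes, as for 53.6% of tested genes.

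Tap1 moved the other way in cKO, from 77.2, 79.0 and 76.6 to 118, 123 and 94.8 scaled TPM (0.51, SE 0.11, adjusted p = 0.00436). It was called without each single library in turn, but its change was -0.04 with a 1 TPM filter or no filter. In cKO, 43.8% of all genes were called, 26.5% lower and 17.3% higher. Psmb10 stood at 44.9, 35.9 and 38.9 ex vivo and 42.0, 41.6 and 45.6 stimulated (0.11, adjusted p = 0.511). H2-K1 differed by -0.27 (adjusted p = 0.0881) and H2-D1 by -0.29 (0.0614), and both were called lower without stimulated cKO library 2 (0.0208 and 0.0114). H2-D1 was also called lower in cKO with a 1 TPM filter (-0.85, adjusted p = 0.0447) and with unscaled TPM (-0.62, adjusted p = 0.0434), settings in which the median gene stood at -0.52 and -0.31. B2m differed by -0.11 and Psmb8 by -0.14. Under quantile normalization in cKO, H2-K1 (0.48, adjusted p = 0.00859), H2-D1 (0.55, 0.000325), Tap1 (1.16, 1.68e-05) and Psmb10 (0.56, 0.00706) were called higher. B2m was then at 0.50 (0.0625), and Nlrc5, Tap2 and Tapbp had uncalled changes of 0.10, 0.08 and -0.03.

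**Figure D4:**
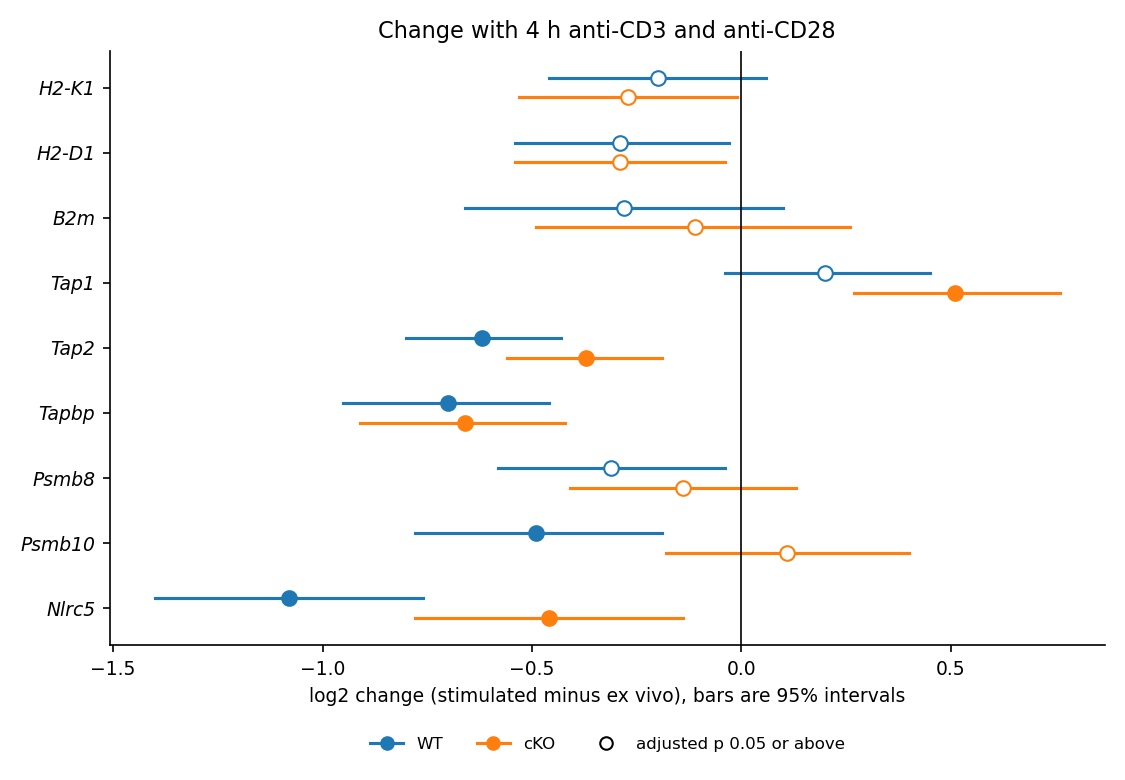
Log2 change from ex vivo to stimulated (horizontal axis) for the 9 tested members in WT (blue) and cKO (orange), with 95% intervals from the limma fit; filled points had an adjusted p under 0.05. Nlrc5, Tapbp and Tap2 were lower in both genotypes, Psmb10 lower in WT and Tap1 higher in cKO; in cKO, Nlrc5 and Tap2 turned under quantile normalization and Tap1 under a 1 TPM filter.

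Whether the response to stimulation itself differed between genotypes was tested by the interaction. None of the 9 members was called by limma, beside 1.10% of all genes, and 2 had an unadjusted p under 0.05. These were Psmb10 (0.60, SE 0.19, adjusted p = 0.165) and Nlrc5 (0.62, SE 0.21, adjusted p = 0.193). For Tap1 the interaction was 0.31 (95% interval -0.04 to 0.66), and for Tap2 0.24 (-0.02 to 0.50). H2-D1 had -0.00 (-0.36 to 0.35). With no interaction called here, a member called in stimulated cells and not ex vivo was not thereby shown to differ between the 2 states.

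Other genes of the pathway were counted from fixed lists. Of the remaining peptide loading and trimming genes, Calr, Canx, Pdia3, Erap1 and Tapbpl, none of 5 was called between genotypes in either state. Calr, the chaperone calreticulin, fell with stimulation in both genotypes (-0.64 in WT, adjusted p = 0.00155; -0.97 in cKO, 8.62e-05), as did Erap1, the aminopeptidase that trims peptides (-0.45, 0.00259; -0.32, 0.0134). The fall was called in 19 of 23 alternatives for Calr in WT and for Erap1 in cKO, and each turned in 1. Canx and Pdia3 fell in cKO by 0.44 and 0.53 (log2), called in 20 and 22 alternatives but not under quantile normalization (adjusted p = 0.528 and 0.506), and each turned in 1. Among the constitutive catalytic proteasome subunits, Psmb5 rose in both genotypes (0.60, adjusted p = 0.0144; 0.73, 0.00426) and Psmb7 fell (-0.29 in both, 0.0488 and 0.0386), though Psmb7 was called in only 8 of 23 alternatives in WT and 12 in cKO. None of the 3 was called between genotypes. The rise of Psmb5 and the level of Psmb8 together gave the Psmb8 to Psmb5 ratios of 0.51-fold in WT and 0.52-fold in cKO after stimulation, with groups apart (exact permutation p = 0.1 in each, two-sided).

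Of the proteasome activator and assembly genes Psme1, Psme2, Psme3 and Pomp, none of 4 was called between genotypes, and Psme2, an activator subunit, was higher after stimulation in cKO (0.29, adjusted p = 0.0407). That call of Psme2 held in 10 of 23 alternatives, and the sign turned in 3. Among 14 nonclassical class I genes, 9 could be tested and none was called between genotypes. H2-T23, which encodes the Qa-1 heavy chain, came closest, with 0.29 after stimulation (adjusted p = 0.0978). Stimulation lowered H2-Q4, H2-Q6 and H2-T24 in both genotypes and H2-T22 in WT, and raised H2-T23 in cKO (0.28, adjusted p = 0.0372; called in 13 of 23 alternatives and turned in 3). In WT, H2-Q4 was called in 15 and H2-Q6 in 19 alternatives and each turned in 1, and H2-T24 was called in 16 in cKO. H2-T24 went from 15.8 ± 2.51 to 6.02 ± 0.0903 scaled TPM in WT (-1.25, adjusted p = 0.000153). Some of these genes are closely related in sequence, and whether reads shared between them went unassigned was not tested.

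Of 11 listed factors that act on class I promoters, Irf1 alone was called between genotypes after stimulation, beside 6.92% of all tested genes. Irf1, an interferon-induced transcription factor, stood at 62.7, 50.7 and 70.0 scaled TPM in stimulated WT and at 114, 113 and 103 in stimulated cKO (0.85, SE 0.11, adjusted p = 0.0015). The groups did not overlap. Rfx5, a subunit of the RFX complex, was the only one called ex vivo, beside 5.29% of all tested genes (0.37, adjusted p = 0.0464), and was called in 4 of 23 alternatives. Stimulation in WT lowered Irf1 (-1.07, adjusted p = 5.7e-05), Rfx5 and Nfyc and raised Nfkb1 and Nfya. In cKO it lowered Irf1 by 0.32 (0.0406, called in 13 of 23 alternatives and turned in 1), Rfx5, Nfyc and Rela, and raised Nfkb1 (0.43). In cKO, Nfkb1 was called in 16 of 23 alternatives and turned in 2, and Rela was called in 19 and turned in 1.

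Among 11 genes of interferon-γ, interferon receptors and JAK-STAT signalling, 3 were higher and 1 lower in stimulated cKO, beside 6.92% of all genes called and 3.30% called higher. Ifng, the gene of interferon-γ, stood at 4.59, 2.76 and 4.67 scaled TPM in stimulated WT and at 39.6, 24.1 and 21.8 in cKO (2.54, SE 0.26, adjusted p = 0.000325). Socs1, an inhibitor of JAK kinases induced by cytokines, stood at 61.3, 38.5 and 51.1 in WT and at 278, 239 and 176 in cKO (2.18, adjusted p = 0.000286). Stat2 was higher as well (0.94, adjusted p = 0.000561), and Ifnar1, a chain of the type I interferon receptor, was lower (-0.72, 0.0105). Socs1 was the one gene of this list called in the interaction (2.04, SE 0.31, adjusted p = 0.0137).

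Ex vivo, Ifng was already higher in cKO (22.5 ± 4.31 in WT, 71.2 ± 19.4 in cKO; 1.60, adjusted p = 0.00616), while Ifngr1, the ligand-binding chain of its receptor, was lower (206 ± 32.4 in WT, 105 ± 13.2 in cKO; -0.97, adjusted p = 0.00498). With stimulation Ifng fell in WT (-2.24) and in cKO (-1.30), and Ifngr1 rose in cKO (1.02, adjusted p = 0.000404). Of these genes, Ifng after stimulation was called under all 23 alternatives, Socs1 under 21, and Irf1 and Stat2 under 20. With a 1 TPM filter the adjusted p was 0.37 for Irf1. The median of this list after stimulation was 0.01, and that of the 11 factors was -0.10.

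Of 10 class II antigen presentation genes, 4 passed the filter and could be tested. Cd74, the invariant chain, was higher in cKO both ex vivo (1.07, adjusted p = 0.00291) and after stimulation (0.87, 0.0062), with these calls held in 21 and 20 of 23 alternatives. H2-Oa was higher by 0.80 and 0.69 (adjusted p = 0.0261 and 0.0414), called in only 13 and 10 of them. H2-Ob was lower ex vivo (-1.11, adjusted p = 0.000681). The 10 genes summed to 78.4 to 110 TPM in WT and 161 to 189 TPM in cKO ex vivo, a state in which no class I member was called. B cell markers, at 9.49 to 12.7 TPM in WT and 16.1 to 22 in cKO ex vivo, were also higher in sum. Their part in the class II values was not tested.

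**Figure D5:**
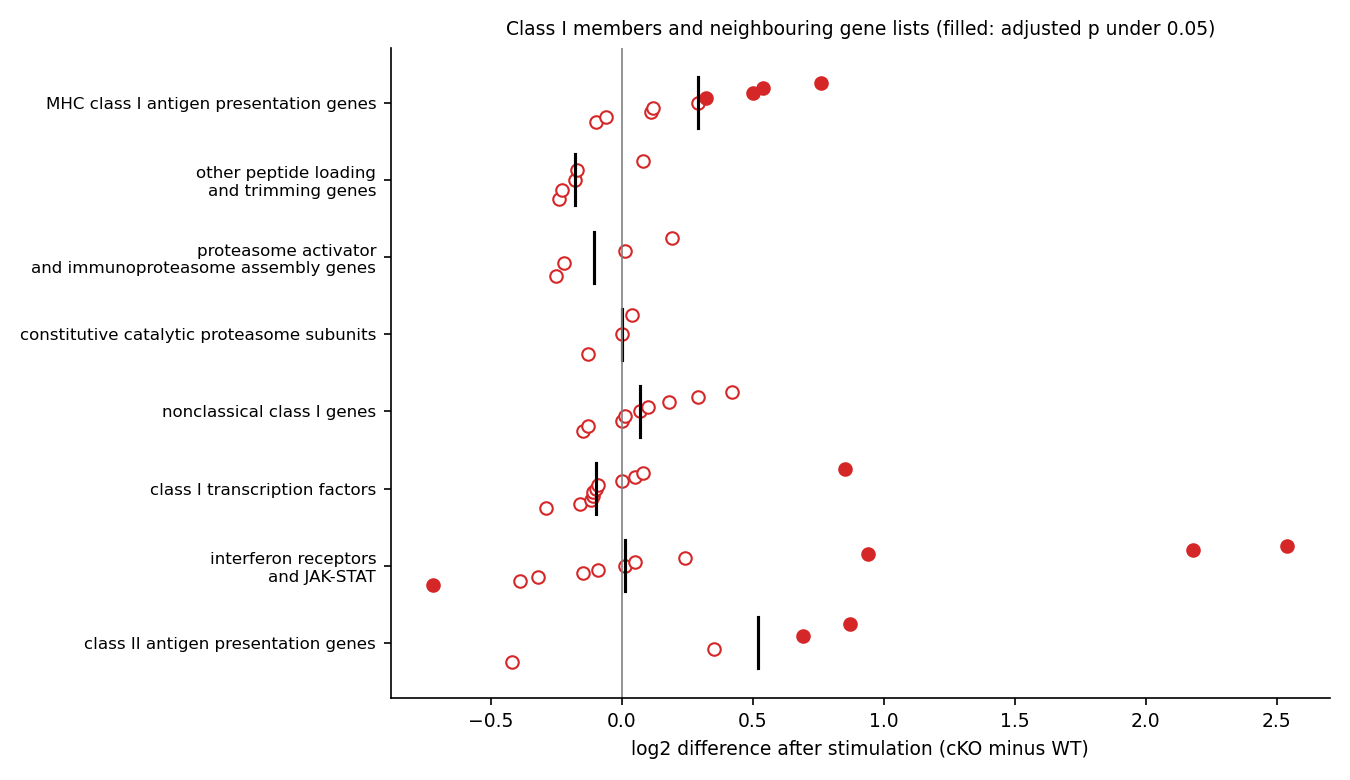
Log2 difference between stimulated cKO and stimulated WT (horizontal axis) for the tested genes of each list; each point is 1 gene, filled where the adjusted p was under 0.05, and the black line is the median of the list. The class I members had a median of 0.29, and the filled points of the other lists include Irf1 (0.85), Stat2 (0.94), Socs1 (2.18) and Ifng (2.54).

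Across the 12 libraries the members did not follow 1 pattern. The mean of their standardised levels correlated with each member at 0.69 to 0.95, highest for Tap2, except for Tap1, at -0.05. Each member is itself part of that mean, which raises these values. Genes outside the set with the pattern most like this mean were Chchd10 (Pearson r = 0.958), Rnf114 (0.941), Ccnd2 (0.941), Ap1b1 (0.935) and Aprt (0.935), among 13309 genes. Ccnd2, which encodes cyclin D2, stood at 101 ± 12 scaled TPM in WT and 90.3 ± 5.34 in cKO ex vivo, and at 42.7 ± 6.20 and 68.7 ± 12.5 after stimulation, the order also seen for Nlrc5 in stimulated cells. Among the most opposed genes were Pabpn1 (-0.971), Bend4 (-0.949), C230037L18Rik (-0.942) and Clstn1 (-0.942). These libraries fall into 4 groups and share their scaling, so the correlations describe the groups as much as single libraries.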

How the data were processed

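Treg RNA was measured in 12 libraries, 3 per group. The authors depleted ribosomal RNA, made stranded libraries, sequenced paired 51-base ends, aligned them with STAR 2.6.0c to mm9 and counted them by strand on Ensembl exons with HTSeq 0.6.1, whose versions come from the submitters' processing notes. The expression signal deposited by the authors is TPM, per gene and library. Their deposited log2 values add the value of 1 read to the TPM, so whole reads could be recovered for 99.9945% of values, within 0.001 of a read. A further deposited table of fold changes and p-values holds the authors' own comparisons and was not used.

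The TPM were scaled by a trimmed mean of M-values (30% and 5% trimmed) over the genes with a group mean of at least 5 TPM. A pseudocount of 1 was added and log2 taken, which understates changes of low genes. limma 3.58.1 in R 4.3.3 (lmFit, contrasts, eBayes with trend) was fitted to all 12 libraries with the 4 groups as the only term. Two-sided p-values received a Benjamini-Hochberg adjustment over the 13318 genes of each comparison, and a gene was called at an adjusted p under 0.05. With 3 mice per group they measure the spread between these samples. Ratios within a library were compared by exact permutation. Depth was 8208659 to 20247649 reads, and floors cover counting error only. The fit was tested on simulated data.

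The members and lists were chosen with earlier results of these data known. The text gives all members in every comparison, the called genes of other lists (or the most abundant where none was called), Ikzf1, Gm10800, and the 5 genes most and least like the members. Genes of these lists were also named where they came closest to a call. Some genes that this rule names are not reported here. Alternatives were filters at 1 TPM and none, pseudocounts of 0.25 and 4, other scalings, voom on recovered reads, a replicate block, only the groups compared, and leaving out each library. Leaving out WT ex vivo 2 and cKO stimulated 3 together was chosen after seeing the data. Figures were drawn with matplotlib 3.10.9 in Python 3.11.15.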

Additional observations from a re-analysis of the deposited data

How the results depend on the processing

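After stimulation, the 4 members called between genotypes became 0 with a 1 TPM filter, with no filter, with TPM as deposited or with only the groups compared, 2 without WT ex vivo 2 and cKO stimulated 3, 6 under quantile normalization, and 0 to 4 when single libraries were left out. In WT stimulation the count fell to 1 with TPM as deposited, was 6 under quantile normalization, 3 of them higher, and was 3 to 5 without single libraries, and in cKO it was 3 to 6. The interaction had 1 call under quantile normalization. Over all genes, the 1 TPM filter called 57 instead of 704 ex vivo, 52 instead of 921 after stimulation and 0 instead of 147 for the interaction. Replicate numbers gave correlations of -0.21 to 0.26 between the deviations of same-numbered libraries over 18 pairs, so they were not taken as pairs. A fit with a replicate block called 0 members ex vivo, 3 after stimulation (Tap2 had adjusted p = 0.0754), 4 in each stimulation comparison and 0 for the interaction.

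Directions turned mostly for uncalled members. Ex vivo, the genotype differences became 0.20 for H2-K1, 0.18 for H2-D1, 0.20 for B2m and 0.14 for Psmb10 with TPM as deposited, 0.15, 0.16 and 0.30 for H2-K1, H2-D1 and B2m under quantile normalization, and -0.05 for Tapbp without both WT ex vivo 2 and cKO stimulated 3. After stimulation, B2m, Tapbp and Psmb8 were at -0.18, -0.19 and -0.01 with a 1 TPM filter and -0.19, -0.20 and -0.02 with none, B2m and Tapbp at -0.17 and -0.18 with TPM as deposited, and H2-K1 and H2-D1 at 0.08 and 0.12 under quantile normalization and 0.02 and 0.05 without both libraries. The stimulation change of Tap1 was -0.05 in WT and -0.04 in cKO with a 1 TPM filter or none, and that of Psmb10 in cKO was -0.44 and -0.43 there and -0.21 with TPM as deposited. H2-K1 in WT was at 0.00 with TPM as deposited. Quantile normalization gave 0.54, 0.59 and 0.48 for H2-K1, H2-D1 and B2m in WT, and in cKO 0.48, 0.55 and 0.50 for these, 0.08 for Tap2, 0.33 for Psmb8 and 0.10 for Nlrc5. B2m in cKO was at 0.05 without both libraries. The interaction values of B2m, Tap2, Tapbp and Psmb8 were -0.15, -0.06, -0.26 and -0.14 with a 1 TPM filter, -0.13, -0.05, -0.25 and -0.13 with none, and -0.37, -0.28, -0.48 and -0.36 with TPM as deposited, where Tap1 had -0.22. H2-D1 had 0.03 with median of ratios, and H2-K1 and H2-D1 had 0.12 and 0.16 without both libraries.

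Leaving out single libraries turned uncalled values within narrow ranges. Ex vivo these were -0.07 to 0.00 for H2-K1, -0.11 to 0.05 for B2m, -0.02 to 0.18 for Tapbp and -0.18 to 0.01 for Psmb10. After stimulation they were -0.23 to 0.02 for H2-K1, -0.20 to 0.05 for H2-D1 and -0.01 to 0.27 for B2m, and B2m in cKO stimulation ran from -0.26 to 0.05. Interaction values ran from -0.20 to 0.07 for H2-K1, -0.14 to 0.12 for H2-D1 and -0.04 to 0.14 for Tapbp. The causes of these shifts were not tested. Every member other than Psmb9 had at least 267 reads in each library at the depths given.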
